A study of Mus musculus with 10 samples.

Results

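The Hippo pathway and its YAP targets were followed through the developing mouse pancreas with 10 genes, *Yap1*, *Wwtr1*, *Tead1*, *Tead2*, *Amotl1*, *Amotl2*, *Cyr61*, *Ctgf*, *Ankrd1* and *Lats2*. The members were chosen by symbol, and all 10 were among the 27716 genes common to all matrices. The single-cell RNA-seq data came from 10 samples, which held 8 independent libraries, each a pool of pancreata from several embryos. The version 1 (v1) libraries were Swiss Webster at E12.5, E14.5 (batches 1 and 2) and E17.5, and all live cells were collected. The v1 E12.5 and E17.5 libraries also belonged to batch 2, which was collected on another day than batch 1. Each stage of the second set below had its own day, and fits across stages had no term for batch or day. The version 2 (v2) libraries were Swiss Webster of the same 3 stages with live CD140a- cells, and its E17.5 library was run in 2 wells, which were summed. The remaining library was E14.5 Fev-Cre;ROSA26mTmG on a C57BL/6J background, in which Cre under control of *Fev* switches membrane TdTomato to membrane GFP, and live GFP+ and TdTomato+ cells were sorted and run with v2 reagents. It was deposited in a pair of alignments of the same cells, and the one with the reporter sequences was used. Dissociation lasted 10 minutes at E12.5, 15 minutes at E14.5 and 30 minutes at E17.5, so stage and dissociation time cannot be told apart.

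The Hippo pathway is a kinase cascade that restrains growth. When it is on, the kinases LATS1 and LATS2 phosphorylate the coactivators YAP and TAZ, which then stay in the cytoplasm or are degraded; when it is off, YAP and TAZ enter the nucleus and bind TEAD transcription factors. In the pancreas YAP is known to drive the growth of progenitors and to be lost when endocrine cells form. *Yap1* (chr9:7931999-8004596, minus strand) encodes YAP, and *Wwtr1* (chr3:57455649-57575910, minus strand) encodes TAZ. *Tead1* (chr7:112679318-112906807, plus strand) and *Tead2* (chr7:45215753-45233644, plus strand) encode their DNA-binding partners. *Amotl1* (chr9:14541966-14645056, minus strand) and *Amotl2* (chr9:102716672-102733418, plus strand) encode angiomotin-like junction proteins that bind YAP, and *Lats2* (chr14:57689662-57758388, minus strand) encodes an inhibitory kinase. *Cyr61* (chr3:145646976-145649981, minus strand) and *Ctgf* (chr10:24595442-24598683, plus strand) encode secreted matricellular proteins, and *Ankrd1* (chr19:36111961-36120099, minus strand) an ankyrin repeat protein. These 3 are the most used readouts of YAP and TAZ, and *Amotl2* and *Lats2* are known targets that act back on the pathway. Positions are on GRCm38.

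Cells were clustered without the members, and a cluster took a name from marker genes. Ductal-like cells carried *Sox9* and *Spp1*, Neurog3-like cells *Neurog3* and *Hes6*, and hormone-like cells the genes of alpha, beta, delta and epsilon cells. Fev-like cells carried *Fev*, with *Chgb* and *Cldn4* or with *Pax4*. In Fev-Cre, 304 of them were in a cluster with *Chgb* and *Cldn4* among its top 10 genes, and 116 in another led by *Pax4*. The class was not split by these genes. Mesothelial-like cells carried *Wt1* and *Upk3b*. Mesenchymal-like cells, with collagens and *Dcn*, were the clusters of the mesenchyme not named mesothelial-like or vascular smooth muscle-like. Of 57982 cells kept, 29333 fell into these 6 classes: 6814 ductal-like, 1077 Neurog3-like, 1327 Fev-like, 3795 hormone-like, 6600 mesothelial-like and 9720 mesenchymal-like. A library entered a comparison where each class held at least 20 cells, which left 7 libraries for the Neurog3-like class, 6 for the Fev-like class, 7 for the mesenchymal-like class and 8 for the others. Clusters were named from these markers, so the sums that follow are no independent check. Vascular smooth muscle-like cells were left out of them. In the 5 classes other than the hormone-like one, summed markers were highest in their own class in every library, with an exception. The median sum of mesenchymal markers, 4622.8 CPM over 7 mesenchymal-like sums, lay close to the 4414.8 CPM over 8 mesothelial-like sums. Mesenchymal markers were highest in the mesenchymal-like cells of 6 of 7 libraries. The exception was v2 E14.5, with 54 such cells among the CD140a- cells. Of these, 25 (46.3%) belonged to a cluster led by *Myog*, *Myod1* and *Acta1*, genes of skeletal muscle, which go against the class name. Clusters with *Myog* among their top 10 genes also held all 8 mesenchymal-like cells of v2 E17.5 and 2.31% to 6.68% of those in the v1 libraries, where the cluster's 48 *Myog* UMIs were all in v1 E12.5. Calls of members in mesenchymal-like cells were therefore also made without these clusters, an alternative chosen after the data had been seen. The clusters kept still held 26 *Myog* UMIs in v1 E12.5, 51 in v1 E14.5 batch 2 and 20 in v1 E17.5. In v1 this alternative thus did not remove all cells with *Myog*. Total UMI counts ran from 15671934 to 196793242 per library. In v1 E17.5, which stood apart from the rest, 60.9% of the UMIs of all barcodes were of hemoglobin genes. This share was taken before the filter, which 2309 of 4635 barcodes passed. Libraries of the same kit shared 10 to 24 barcodes in v1 and 67 to 155 in v2, at most 1.79% of the smaller library. Immune-like cells, which should lack much of the pathway, were taken as a measure of RNA free in the suspension. Their medians of *Lats2*, *Wwtr1* and *Cyr61* were 9.15, 5.04 and 46.34 CPM. Hormone-like medians were lower, at 2.94, 0.83 and 11.15 CPM, so for these members the immune-like range is only an upper limit of free RNA.

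Promoter windows of 250 bases before to 50 bases after a start site, from RefSeq on GRCm38.p6, were searched for the core of the motif that TEAD proteins bind, GGAATG on either strand. Of the 8 members with a window, 6 held it in at least 1 window (*Yap1*, *Wwtr1*, *Amotl2*, *Cyr61*, *Ankrd1* and *Lats2*), and 2 did not (*Tead2* and *Amotl1*). *Tead1* and *Ctgf* had no window in the table. Counted by window, 7 of 10 windows of the members held the motif, against 14.66% of the 32841 windows of all genes. The pair of *Wwtr1* windows overlap and hold the same match, so 1 match is counted in both. A match is a description of the letters and not a bound site. The windows of *Amotl2*, *Cyr61* and *Ankrd1* are printed as examples of known targets that held it and whose levels are described below. They read 5′ to 3′ on the strand of the gene, with the motif in capitals (CATTCC is the motif on the other strand). The first base of the motif lay at -65 from the start site in *Amotl2*, at -103 in *Cyr61*, and at -210 and -123 in *Ankrd1*.
Amotl2, chr9:102717554-102717853, plus strand: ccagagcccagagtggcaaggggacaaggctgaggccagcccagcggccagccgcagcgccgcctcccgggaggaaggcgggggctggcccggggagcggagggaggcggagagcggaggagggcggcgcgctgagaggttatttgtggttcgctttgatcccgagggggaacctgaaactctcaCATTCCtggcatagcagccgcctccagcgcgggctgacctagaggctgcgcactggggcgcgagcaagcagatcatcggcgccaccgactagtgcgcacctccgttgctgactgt
Cyr61 (Ccn1 in RefSeq), chr3:145649936-145650235, minus strand: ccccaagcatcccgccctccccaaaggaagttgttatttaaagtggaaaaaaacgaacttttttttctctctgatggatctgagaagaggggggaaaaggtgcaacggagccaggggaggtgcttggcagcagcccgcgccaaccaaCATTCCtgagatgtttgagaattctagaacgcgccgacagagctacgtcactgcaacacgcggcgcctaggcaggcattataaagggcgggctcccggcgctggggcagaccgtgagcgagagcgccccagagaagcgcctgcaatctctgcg
Ankrd1, chr19:36119795-36120094, minus strand: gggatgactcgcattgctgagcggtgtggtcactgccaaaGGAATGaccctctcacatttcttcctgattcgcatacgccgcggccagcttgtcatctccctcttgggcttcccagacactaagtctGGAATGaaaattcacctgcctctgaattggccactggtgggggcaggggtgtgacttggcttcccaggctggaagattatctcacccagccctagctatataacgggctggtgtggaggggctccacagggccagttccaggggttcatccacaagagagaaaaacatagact

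The level of a gene is given in CPM, its UMIs summed over the cells of a class in a library and scaled to a fixed total. The 10 members did not share 1 pattern over the classes. *Yap1*, *Wwtr1* and the secreted targets were high in ductal-like cells and low in hormone-like cells, whereas *Tead2* and *Amotl2* were highest in Neurog3-like cells. *Wwtr1* and *Lats2* were highest in mesothelial-like cells. *Tead1* was at a like level in ductal-like, Neurog3-like, hormone-like, mesothelial-like and mesenchymal-like cells, with means of 4.53 to 4.91 on the log2(CPM + 1) scale, and at 2.71 in Fev-like cells. Each member's 6 classes were put in order of mean level, and neighbours were compared with an exact two-sided sign-flip permutation test over libraries. Of 50 neighbour pairs, 20 had an unadjusted p under 0.05 and 0 passed after Benjamini-Hochberg adjustment, the lowest adjusted p being 0.0601. With 5 to 8 libraries, the smallest p this test could give was 0.0625 to 0.0078. By this test alone no neighbours in any order could be separated, and the folds and tests below are from a fit over all genes.

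**Figure D1:**
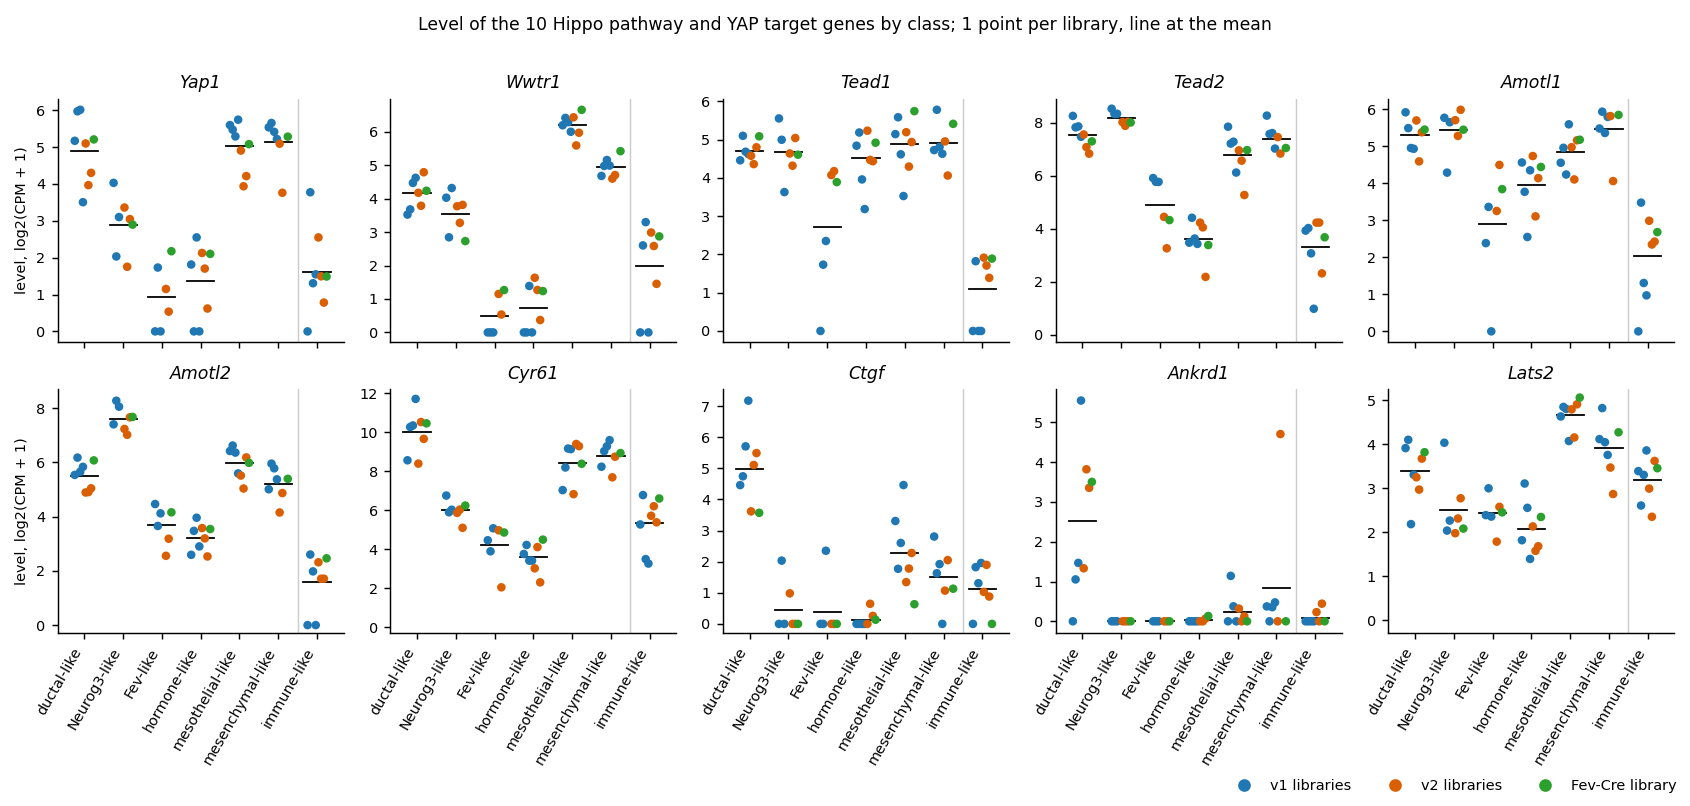
Level of each member, as log2(CPM + 1) on the y axis, in 6 classes and in immune-like cells; each point is a library and each line the mean over libraries. *Tead2* and *Amotl2* peak in Neurog3-like cells, where *Amotl2* lies between 128.9 and 309.5 CPM, and *Ankrd1* is at 0 in every Neurog3-like and Fev-like sum.

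The first comparison asked what changed between ductal-like cells and Neurog3-like cells, the endocrine progenitors that arise from the ductal epithelium. *Yap1*, *Wwtr1*, *Cyr61* and *Ctgf* were lower in Neurog3-like cells and *Tead2* and *Amotl2* higher, so 6 of 8 members tested passed at an adjusted p under 0.05 (edgeR quasi-likelihood test, 7 libraries). Of all 8354 genes tested, 53.3% passed, 24.9% higher and 28.4% lower. The share of members was thus not far above the background, and what follows concerns their directions and sizes. The filter on low counts admits a member that is high in ductal-like cells alone, as *Ctgf* was. The call of *Ctgf*, counted among the 6, could therefore hardly have been in the other direction.

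*Yap1* in ductal-like cells had a lowest, median and highest level of 14.66, 35.04 and 63.59 CPM over the 7 libraries, and in Neurog3-like cells of 2.37, 7.27 and 15.34 CPM. It was lower in Neurog3-like cells of all 7 libraries, though the ranges of the groups overlapped slightly: v1 E12.5 had the highest Neurog3-like value, from 2 UMIs, and v2 E14.5 the lowest ductal-like one. The Neurog3-like values of the other 6 libraries lay within the immune-like range of 0 to 12.69 CPM, whose median was 1.81 CPM. The log2 fold change was -2.24 ± 0.24 (SE, adjusted p = 1.84e-06 by edgeR). *Wwtr1* went from a median of 17.09 CPM to 12.69 CPM, lower in 6 of 7 libraries, with overlapping groups (log2 fold change -0.74 ± 0.22, adjusted p = 0.0114 by edgeR). That call was lost without the library block (adjusted p = 0.104 by edgeR) and without the Fev-Cre library (adjusted p = 0.0621 by edgeR).

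*Tead2* had a lowest, median and highest level of 112.8, 187.0 and 304.9 CPM in ductal-like cells and of 234.9, 260.2 and 368.1 CPM in Neurog3-like cells. It was higher in Neurog3-like cells of all 7 libraries, with groups that overlapped, and v1 E12.5 was highest in both classes. The log2 fold change was 0.67 ± 0.10 (adjusted p = 6.93e-05 by edgeR). *Tead1* did not pass (log2 fold change -0.06 ± 0.17, adjusted p = 0.798 by edgeR), and with each library clustered alone it did (-0.59, adjusted p = 0.00424 by edgeR).

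*Amotl2* made the largest rise of the members. Its lowest, median and highest levels were 28.73, 45.55 and 71.47 CPM in ductal-like cells and 128.9, 202.1 and 309.5 CPM in Neurog3-like cells. The groups did not overlap, which held for 1 member in this direction and for *Cyr61* and *Ctgf* in the other, against 7.83% of all genes of 1 CPM or more. The log2 fold change was 2.19 ± 0.13 (adjusted p = 2.06e-09 by edgeR). Its relative *Amotl1* gave 0.20 ± 0.18 (adjusted p = 0.350 by edgeR).

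The rise of *Amotl2* and *Tead2* was also seen in shares of cells. With each cell thinned to 2000 UMIs, *Amotl2* was found in a median of 31.4% of Neurog3-like cells (21.3% to 46.0% over 7 libraries), in 7.40% of ductal-like cells and in 0.0575% of immune-like cells. *Tead2* was found in 41.2% of Neurog3-like cells (34.9% to 45.0%), 28.9% of ductal-like cells (20.6% to 47.1%) and 2.91% of immune-like cells. Its Neurog3-like and ductal-like ranges thus overlapped. Without thinning, the medians for *Amotl2* were 60.2%, 20.2% and 1.62%, and for *Tead2* 75.9%, 60.2% and 5.46%. The median depth of a cell ran over libraries from 2867 to 9349 UMIs in Neurog3-like, from 3703 to 12629 in ductal-like and from 2340.5 to 8173 in immune-like cells. Thinning left out 8 Neurog3-like, 78 ductal-like and 164 immune-like cells.

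*Cyr61*, also an immediate early gene, had the most UMIs of the members in ductal-like cells. Its level ran from 336.2 through a median of 1240 to 1476 CPM in the ductal-like cells of the 7 libraries and from 33.44 through 64.48 to 107.4 CPM in Neurog3-like cells, with no overlap (log2 fold change -3.88 ± 0.26, adjusted p = 8.95e-09 by edgeR). The Neurog3-like values lay within the range of the immune-like cells, from 8.66 to 109.2 CPM. They were above that of hormone-like cells, from 3.96 to 21.62 CPM, so the immune-like range cannot tell whether they are background. *Ctgf* was at 0 in the Neurog3-like cells of 5 of 7 libraries, at 0.98 CPM in v2 E12.5 and at 3.09 CPM in v1 E14.5 batch 1. In ductal-like cells it was at 10.87 to 51.23 CPM (log2 fold change -5.39 ± 0.46, adjusted p = 1.73e-07 by edgeR). The Neurog3-like sums held 3 UMIs of *Ctgf* in all, so *Ctgf* passed the filter on low counts through ductal-like cells. The direction of this fold may therefore be set by the filter, and its size is uncertain.

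*Ankrd1* and *Lats2* had too few UMIs to be tested here with the main settings. *Lats2* entered the test in 3 alternatives and was lower in all 3 (log2 fold change -1.39 to -1.33), and *Ankrd1* entered it in 1. *Ankrd1* had 560 UMIs in ductal-like cells and 0 in Neurog3-like cells of all 7 libraries. Allowing 3 UMIs over the Neurog3-like group, a limit for counting error alone, its level there could reach 0.5035 CPM, and no fold is given because libraries differed in *Ankrd1* and in their shares of each class. In ductal-like cells it differed widely between libraries: it was at 0 in v1 E12.5, at 1.07 to 1.77 CPM in v1 E14.5 batches 1 and 2 and v2 E12.5, at 9.24 to 13.14 CPM in v2 E14.5, v2 E17.5 and Fev-Cre, and at 45.87 CPM, from 31 UMIs, in v1 E17.5. *Lats2* had a median of 11.73 CPM in ductal-like and 3.79 CPM in Neurog3-like cells, lower in 5 of 7 libraries. Immune-like cells had 4.09 to 13.47 CPM of *Lats2* (median 9.15), which overlaps the ductal-like range of 3.53 to 16.12 CPM and lies above the Neurog3-like median.

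Other genes of the pathway moved in both directions. Of list A, 25 upstream and partner genes, 18 were tested, of which 5 were higher and 6 lower, and the median log2 fold change of 0.05 lay close to -0.03 over all genes. Among them *Ajuba*, which restrains LATS, fell by 2.36, *Ptpn14*, a phosphatase that binds YAP, by 1.88, and *Wwc1* (KIBRA), an activator of LATS, by 1.88, and *Mob1b*, a LATS cofactor, rose by 0.75 on the log2 scale. Of list B, 16 other genes of a YAP and TAZ target signature, 6 were tested, of which 1 was higher and 3 lower (median -0.41). *Gadd45a*, a growth arrest gene, rose by 6.22, whereas *F3* (tissue factor) fell by 1.58, *Rbms3* by 1.05 and *Fjx1* by 0.81. Of list D, 12 actin and SRF genes, 4 were higher and 5 lower of 11 tested (median -0.21). Genes that respond to dissociation moved in the direction of *Cyr61*: of list C, 9 of 13 tested were lower in Neurog3-like cells and 2 higher (median -0.99), and their part in the fall of *Cyr61* and *Ctgf* was not tested.

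**Figure D2:**
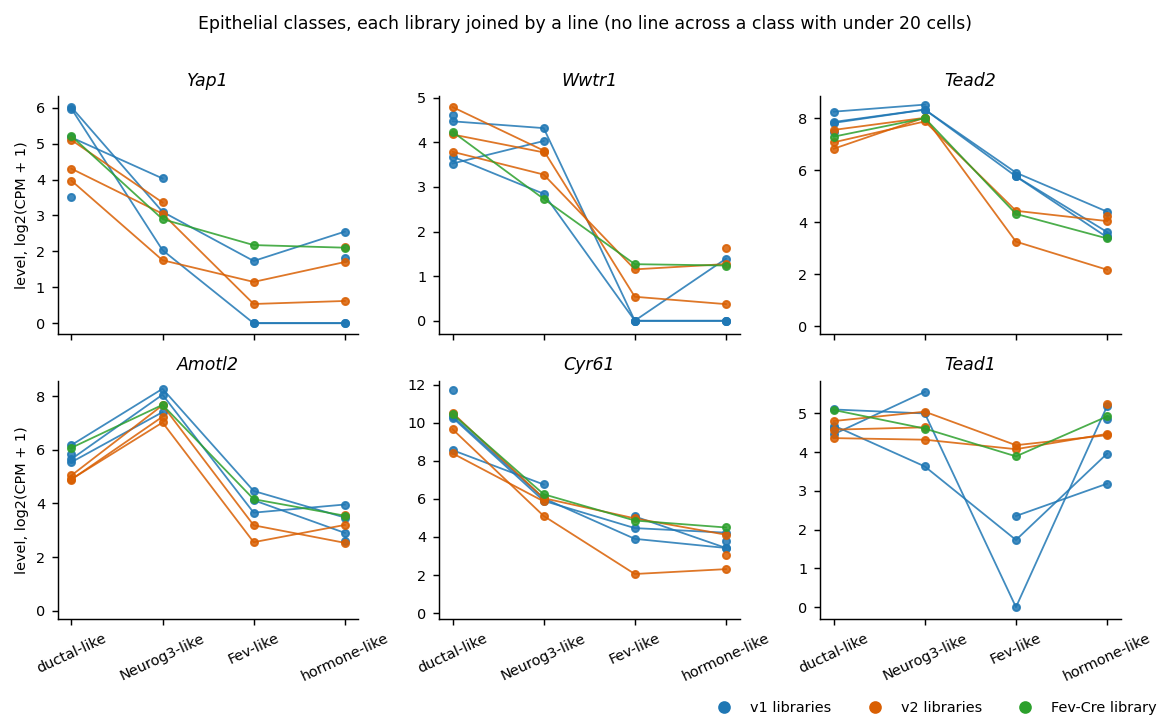
Level of 6 members, as log2(CPM + 1) on the y axis, in ductal-like, Neurog3-like, Fev-like and hormone-like cells; each line joins the classes of a library. *Tead2* and *Amotl2* rise at Neurog3-like cells in the 7 libraries with that point. They drop at Fev-like cells in the 5 libraries with both points. *Yap1* and *Cyr61* drop at Neurog3-like cells, and *Wwtr1* drops at Fev-like cells.

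The next comparison asked what changed from Neurog3-like to Fev-like cells, the later progenitors that carry *Fev*. Both comparisons use the same Neurog3-like sums and are not independent. *Tead2* and *Amotl2*, higher in Neurog3-like than in ductal-like cells, were lower again in Fev-like cells, and all 5 members tested were lower in Fev-like cells (*Tead1*, *Tead2*, *Amotl1*, *Amotl2* and *Cyr61*, edgeR, 5 libraries). Of all 7245 genes, 38% passed, 20.2% lower. The other 5 members had too few UMIs to be tested, so the 5 are not all members. The filter on low counts admits a member that is high in Neurog3-like cells alone. The shared direction of the 5 may therefore be set in part by the filter.

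*Amotl2* was at 203.97 CPM in Neurog3-like and 16.88 CPM in Fev-like cells of Fev-Cre, at 309.5 and 21.11 CPM in v1 E14.5 batch 1, at 265.5 and 11.62 CPM in v1 E14.5 batch 2, at 128.9 and 4.88 CPM in v2 E14.5 and at 202.1 and 8.10 CPM in v2 E17.5. Every Fev-like value was below every Neurog3-like value, and the lowest of them, in v2 E14.5, was within the immune-like range of 0 to 5.08 CPM. The log2 fold change was -4.29 ± 0.20 (adjusted p = 1.65e-06 by edgeR). *Tead2* fell from 256.4 to 18.99 CPM in Fev-Cre, from 321.9 to 59.11 and from 322.4 to 53.46 CPM in v1 E14.5 batches 1 and 2, from 234.9 to 20.74 CPM in v2 E14.5 and from 260.2 to 8.55 CPM in v2 E17.5. These groups did not overlap either (log2 fold change -3.74 ± 0.30, adjusted p = 1.04e-05 by edgeR). Fitted alone, the v1 libraries gave -2.59, and the v2 and Fev-Cre libraries gave -4.26. The difference of v2 and Fev-Cre from v1 in the log2 fold change was -1.59 ± 0.45, with an unadjusted p of 0.00556 and an adjusted p of 0.687 by edgeR.

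*Tead1* in Fev-like cells was at 0 and 2.32 CPM in v1 E14.5 batches 1 and 2 and 13.83 to 17.11 CPM in v2 E14.5, v2 E17.5 and Fev-Cre. The difference of v2 and Fev-Cre from v1 in the log2 fold change was 2.78 ± 1.15, with an unadjusted p of 0.0360 and an adjusted p of 0.723 by edgeR. Over the 5 libraries it was lower than in Neurog3-like cells by a log2 fold change of -1.11 ± 0.34 (adjusted p = 0.0267 by edgeR), and the call was lost without the library block (adjusted p = 0.139 by edgeR). *Amotl1* fell by 1.99 ± 0.21 on the log2 scale (adjusted p = 4.4e-05 by edgeR) and *Cyr61* by 1.86 ± 0.29 (adjusted p = 0.000588 by edgeR), from values already within the immune-like range.

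*Wwtr1* was near 0 from the Fev-like cells on. It was at 5.64 to 18.97 CPM in Neurog3-like cells, and in Fev-like cells at 0 in both v1 libraries, at 0.45 CPM in v2 E17.5, at 1.22 CPM in v2 E14.5 and at 1.41 CPM in Fev-Cre, without overlap. Such non-overlap held for 4 members (*Wwtr1*, *Tead2*, *Amotl2* and *Cyr61*), all lower, against 10.7% of all genes. Without the filter on low counts *Wwtr1* gave -3.30 (adjusted p = 1.57e-05 by edgeR). *Yap1* was at 2.37 to 7.59 CPM in Neurog3-like and at 0 to 3.52 CPM in Fev-like cells and gave -1.80 without that filter (adjusted p = 0.0729 by edgeR). *Ctgf* had UMIs in the Fev-like cells of 1 of 6 libraries, v1 E17.5 at 4.10 CPM from 1 UMI, and *Ankrd1* in none.

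Of the other genes of the pathway, those of list B moved in both directions and those of list A that passed were lower. Of list A, 12 were tested, of which 0 were higher and 2 lower: *Vgll4*, which competes with YAP for TEAD, fell by 1.09, and the kinase *Map4k4* by 0.87 on the log2 scale. Of list B, 2 were higher and 2 lower of 6 tested (median -0.25, against 0.02 over all genes). *Gadd45a* fell by 3.68 and *Fjx1* by 1.64, and *F3* rose by 2.65 and *Asap1* by 0.83. Of list D, 0 were higher and 4 lower of 8 tested. The dissociation genes of list C went against the members, with 8 higher and 1 lower of 12 tested (median 0.64).

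From Fev-like to hormone-like cells, 3 members had enough UMIs to be tested in 6 libraries and 2 passed, against 26.9% of 6989 genes. *Tead1* was higher in the hormone-like cells of all 6 libraries, with a lowest, median and highest level of 8.10, 20.91 and 35.44 CPM against 0, 8.97 and 17.11 CPM (log2 fold change 1.20 ± 0.25, adjusted p = 0.00258 by edgeR). *Tead2* was lower in all 6, at 3.52, 10.53 and 20.25 CPM against 8.55, 37.05 and 59.11 CPM (log2 fold change -0.93 ± 0.22, adjusted p = 0.00675 by edgeR). The groups overlapped for all 10 members, against 3.55% of all genes that did not overlap. Both calls were lost without the library block, at adjusted p = 0.126 for *Tead1* and 0.139 for *Tead2* by edgeR, and *Tead2* also in v2 and Fev-Cre libraries alone (-0.63, adjusted p = 0.115 by edgeR). Hormone-like levels of *Tead2* were near the immune-like range of 0.96 to 17.72 CPM. Among 11 genes of list A tested *Mob1a* rose by 0.57 and 0 fell, and among 5 of list B *Gadd45a* fell by 0.83 on the log2 scale and 0 rose. List C was lower for 9 of 13 genes tested and list D for 2 of 7, with 1 of list D higher.

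*Yap1* and *Wwtr1* were near zero in hormone-like cells. *Yap1* lay between 0 and 4.86 CPM in hormone-like cells and between 0 and 12.69 CPM in immune-like cells. *Wwtr1* lay between 0 and 2.11 CPM against 0 and 8.85 CPM, so neither rose above the immune-like range at this depth. Alpha-like and beta-like cells within the class were alike in this: *Yap1* was at most 5.65 CPM in alpha-like and 3.93 CPM in beta-like cells. *Tead1*, in contrast, was at 8.10 to 36.65 CPM in hormone-like cells and at 0 to 2.78 CPM in immune-like cells, and *Amotl1* at 4.86 to 25.70 CPM against 0 to 10.15 CPM.

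Across the whole path, hormone-like against ductal-like cells, 8 of 9 members tested were lower and 0 higher in 8 libraries, against 65.9% of 9934 genes that passed, 33.1% lower and 32.8% higher. *Cyr61* had a lowest, median and highest level of 336.2, 1273 and 3360 CPM in ductal-like and of 3.96, 11.15 and 21.62 CPM in hormone-like cells, with a log2 fold change of -6.55 ± 0.26 (adjusted p = 9.43e-10 by edgeR). *Ctgf* gave -7.08 ± 0.28, *Wwtr1* -4.25 ± 0.38, *Tead2* -3.91 ± 0.18 and *Yap1* -3.74 ± 0.27 as log2 fold changes. Hormone-like cells held 7 UMIs of *Ctgf*, 31 of *Wwtr1* and 65 of *Yap1*, with 0 in 5, 3 and 2 of 8 libraries. These members passed the filter on low counts through ductal-like cells. Their direction may be set in part by the filter, and the sizes of their folds are uncertain. *Amotl2* gave -2.23 ± 0.19, *Lats2* -1.65 ± 0.23 and *Amotl1* -1.19 ± 0.17, and the largest adjusted p of the 8 was 3.67e-05 by edgeR. The hormone-like median of *Lats2*, 2.94 CPM, was below the lowest immune-like value, and its ductal-like values overlapped the immune-like ones. *Tead1* was the exception at 0.00 ± 0.18, higher in 4 libraries and lower in 4 (adjusted p = 0.989 by edgeR). The groups did not overlap for 6 members, all lower (*Yap1*, *Wwtr1*, *Tead2*, *Amotl2*, *Cyr61* and *Ctgf*), against 14% of all genes. *Tead2* and *Amotl2* thus ended below their ductal-like level after the higher Neurog3-like one.

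Of list A, 6 were higher and 8 lower of 20 tested in hormone-like cells, with a median log2 fold change of -0.28 against 0.01 over all genes. *Ajuba* fell by 4.83, *Tead3*, another TEAD factor, fell by 2.59, and *Vgll4* fell by 2.00 on the log2 scale. Of list B, 4 were higher and 2 lower of 8 tested: *Gadd45a* rose by 1.85, *Tgfb2* also rose (adjusted p = 0.000433 by edgeR), and *Fjx1* fell by 4.18 and *Rbms3* fell by 1.97. The actin and SRF genes of list D were lower for 9 of 11 tested and higher for 0 (median -1.04). Those of list C were lower for 8 of 15 and higher for 1 (median -0.64).

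**Figure D3:**
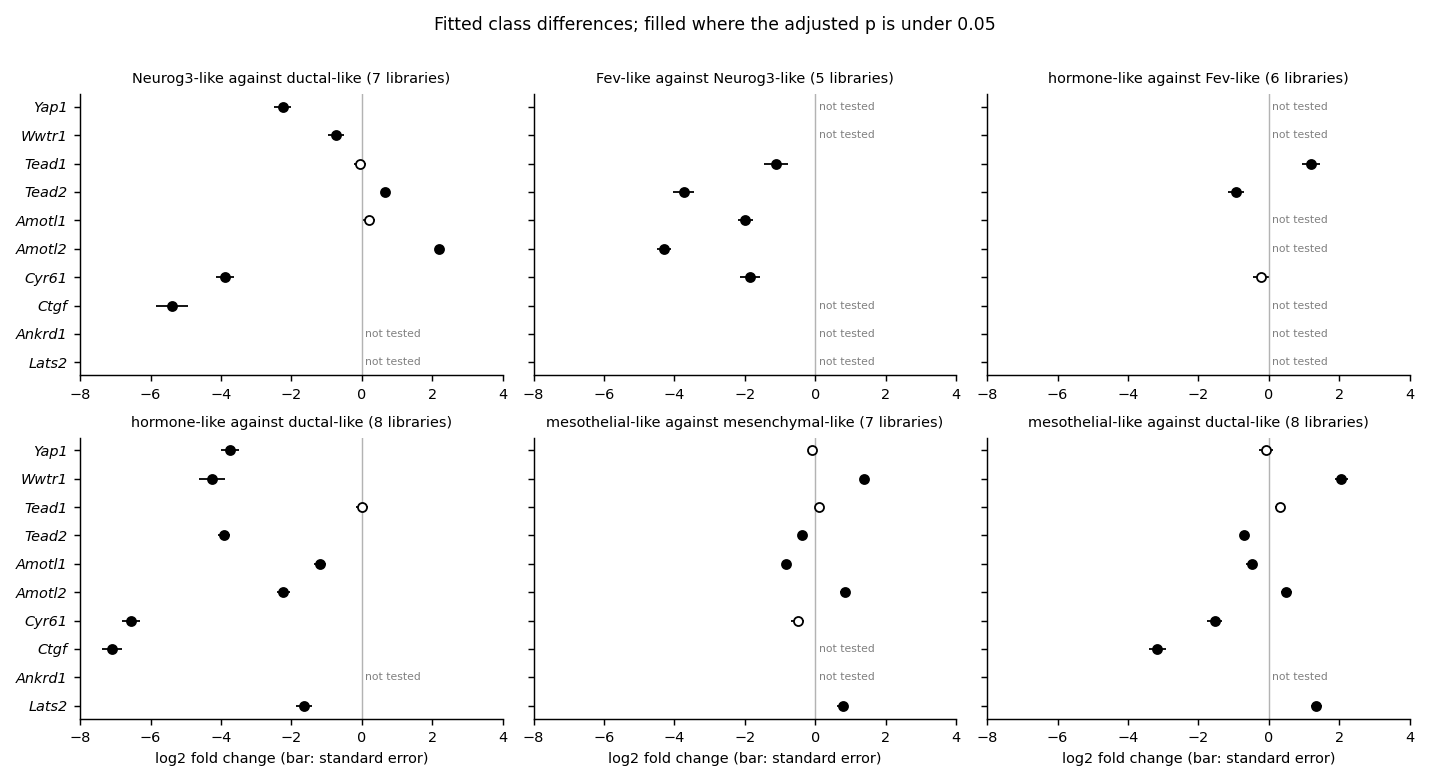
Log2 fold change of each member (x axis) in the 6 class comparisons, with bars of 1 standard error; filled points have an adjusted p under 0.05 by edgeR, and "not tested" marks members with too few UMIs. The tested members of the Fev-like against Neurog3-like comparison all lie below 0, and *Tead1* lies near 0 in hormone-like against ductal-like cells.

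The mesothelium is the sheet of cells that covers the organ, and mesothelial-like cells were compared with the mesenchymal-like cells beneath it. *Wwtr1*, *Amotl2* and *Lats2* were higher in mesothelial-like cells and *Tead2* and *Amotl1* lower, 5 of 8 members tested in 7 libraries, against 35.6% of 10917 genes, 18.2% higher and 17.4% lower. *Wwtr1* was at 47.31, 77.22 and 100.03 CPM (lowest, median and highest) in mesothelial-like and at 23.25, 30.57 and 41.90 CPM in mesenchymal-like cells. The groups did not overlap, which held for 1 member and for 5.54% of all genes, and the log2 fold change was 1.39 ± 0.11 (adjusted p = 1.32e-06 by edgeR). *Yap1*, in contrast, had medians of 38.16 and 37.99 CPM and gave -0.09 ± 0.10 (adjusted p = 0.509 by edgeR).

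*Lats2* was at 15.79, 26.67 and 32.30 CPM in mesothelial-like and at 6.28, 15.48 and 27.22 CPM in mesenchymal-like cells, higher in all 7 libraries with overlapping groups (log2 fold change 0.77 ± 0.16, adjusted p = 0.00220 by edgeR). It gave 1.095 in v2 and Fev-Cre libraries and 0.50 in v1 libraries, where it did not pass (adjusted p = 0.109 by edgeR). *Amotl2* was higher by 0.85 ± 0.15 and in all 7 libraries (adjusted p = 0.000668 by edgeR), *Amotl1* gave -0.84 ± 0.12 (adjusted p = 0.000189 by edgeR), and *Tead2* gave -0.38 ± 0.10, lower in all 7 (adjusted p = 0.00999 by edgeR). Without the library block *Tead2* and *Amotl2* no longer passed (adjusted p = 0.289 and 0.0572 by edgeR). *Tead2* passed in 20 and *Amotl2* in 21 of 23 alternatives. *Cyr61* gave -0.50 ± 0.18 (adjusted p = 0.0517 by edgeR), and passed in 12 of 23 alternatives, with adjusted p from 0.00156 to 0.753 by edgeR. Without v2 E14.5 it gave -0.70 (adjusted p = 0.00167 by edgeR). *Ankrd1*, at 0 to 0.39 CPM in the mesenchymal-like cells of 6 libraries, stood at 25.13 CPM in those of v2 E14.5, from 8 UMIs in 54 cells. All 8 UMIs were in the 25 cells of the *Myog*-led cluster, and the other 29 cells had 0. Without the *Myog*-led clusters the 5 calls were kept and *Cyr61* passed too (-0.54, adjusted p = 0.0162 by edgeR).

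Other pathway genes differed in both directions. Of list A, 5 were higher and 7 lower of 24 tested in mesothelial-like cells. *Wwc1* was higher by 2.71, and *Vgll3*, a TEAD cofactor, gave -3.46, *Amot* -2.73 and the protocadherin *Fat4* -2.51 on the log2 scale. Of list B, 4 were higher and 5 lower of 12, with *Myof* at 1.99, *Crim1* at 1.75, *F3* at 0.95 and *Igfbp3* at -1.29. List C was higher for 2 and lower for 10 of 15 tested (median -1.03), and list D for 2 and 4 of 12. The v2 sort removed cells with CD140a, the product of *Pdgfra*, and so the mesenchymal-like cells of v2 are those that passed the gate. None were compared at v2 E17.5, where 8 cells were found.

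Against ductal-like cells, mesothelial-like cells had more *Wwtr1*, *Lats2* and *Amotl2* and less *Ctgf*, *Cyr61*, *Tead2* and *Amotl1*, 7 of 9 members tested in 8 libraries, against 50.4% of 10985 genes, 24.2% higher and 26.1% lower. *Wwtr1* was higher in all 8 libraries without overlap, at 47.31 to 100.03 CPM against 10.51 to 26.71 CPM (log2 fold change 2.06 ± 0.17, adjusted p = 1.14e-06 by edgeR). It was the 1 member without overlap, against 10.9% of all genes. *Lats2* was higher in all 8 as well (1.35 ± 0.16, adjusted p = 2.83e-05 by edgeR), with a lowest, median and highest level of 15.79, 26.75 and 32.30 CPM against 3.53, 10.30 and 16.12 CPM. *Yap1* was not called here either (-0.08 ± 0.19, adjusted p = 0.789 by edgeR).

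*Ctgf* had a median of 3.14 CPM in mesothelial-like and 29.64 CPM in ductal-like cells and was lower in all 8 libraries (-3.17 ± 0.24, adjusted p = 4.03e-07 by edgeR). *Cyr61* gave -1.54 ± 0.21, lower in all 8 (adjusted p = 6.63e-05 by edgeR). *Tead2* gave -0.70 ± 0.13, *Amotl1* -0.49 ± 0.15 and *Amotl2* 0.50 ± 0.16, and the last pair did not pass without the library block (adjusted p = 0.163 and 0.0913 by edgeR). *Amotl1* passed in 18 and *Amotl2* in 19 of 23 alternatives, with adjusted p of up to 0.173 and 0.167 by edgeR. The known targets split: *Lats2* and *Amotl2* were higher in the cells with more *Wwtr1*, and *Cyr61* and *Ctgf* were lower. Of the other targets in list B, 6 were higher and 4 lower in mesothelial-like cells of 13 tested (median 0.77, against -0.04 over all genes). *Ccdc80* led with 7.20, then *Igfbp3* with 6.23, *Axl*, a receptor kinase, with 5.53 and *Crim1* with 4.35 on the log2 scale. Of list A, 5 were higher and 5 lower of 24, with *Dchs1* at 3.81, *Tead4* at 1.56, *Taok3* at -1.81 and *Wwc1* at -1.71. List D was higher for 8 and lower for 2 of 12 tested, and list C for 3 and 4 of 15.

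*Ctgf* was not at its highest in the 6 classes. In endothelial-like cells it ran from 26.25 CPM in v2 E12.5 to 195.8 CPM in v1 E17.5, and there it was above the ductal-like level in all 7 libraries with at least 20 such cells. *Wwtr1* in these cells lay between 28.42 and 68.51 CPM, and *Amotl1* between 42.63 and 122.8 CPM. *Ankrd1* was also found in the vascular smooth muscle-like cells of both E17.5 libraries, at 18.00 CPM in v1 and 32.64 CPM in v2. Acinar-like cells kept *Yap1*, at 9.12 to 34.52 CPM, and *Tead2*, at 69.42 to 300.6 CPM, and had little *Wwtr1*, at 1.74 to 7.12 CPM, and *Amotl2*, at 3.96 to 15.46 CPM. These classes were given values only, with no test.

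Across stages, *Cyr61* rose in ductal-like and mesothelial-like cells, *Ctgf* rose in ductal-like cells and *Tead2* fell in mesothelial-like cells. In ductal-like cells 2 of 10 members tested passed between E12.5 and E17.5, both higher, against 5.9% of 10298 genes, 4.01% of them higher (edgeR, 7 Swiss Webster libraries, with a term for kit and sort). *Cyr61* was at 378.4 CPM in v1 and 336.2 CPM in v2 at E12.5, at 1240, 1307 and 1476 CPM at E14.5, and at 3360 CPM in v1 and 812.0 CPM in v2 at E17.5. Both E12.5 libraries were below all others, and the v2 E17.5 value was below all those of E14.5. The log2 fold change of E17.5 against E12.5 was 2.57 ± 0.53 (adjusted p = 0.0111 by edgeR). *Ctgf* was at 21.02 CPM in v1 and 11.27 CPM in v2 at E12.5, at 25.79, 51.23 and 33.50 CPM at E14.5, and at 143.5 CPM in v1 and 43.96 CPM in v2 at E17.5 (2.57 ± 0.51, adjusted p = 0.00935 by edgeR). *Ankrd1* gave 4.48 ± 1.35 and did not pass (adjusted p = 0.0816 by edgeR). *Cyr61* passed in 16 and *Ctgf* in 19 of 20 alternatives. The count of 2 became 1 without v1 E12.5 and 0 without v2 E12.5, where 1 library stood for that stage.

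In mesothelial-like cells 2 of 9 members passed, against 19.6% of 11768 genes, 11.9% higher and 7.78% lower. *Cyr61* was at 130.5 CPM in v1 and 112.9 CPM in v2 at E12.5, at 293.1, 574.8 and 676.6 CPM at E14.5, and at 563.1 and 626.0 CPM at E17.5 (log2 fold change 2.39 ± 0.38, adjusted p = 0.000345 by edgeR). Every later library was above both E12.5 libraries. *Tead2* was at 229.5 and 123.0 CPM at E12.5, at 147.2, 154.7 and 93.80 CPM at E14.5, and at 68.41 and 37.55 CPM at E17.5 (-1.64 ± 0.28, adjusted p = 0.000558 by edgeR). Within each kit the order was E12.5, E14.5, E17.5 from high to low. *Wwtr1* gave -0.21 ± 0.30 over the same stages (adjusted p = 0.675 by edgeR). In mesenchymal-like cells v1 E17.5 was the 1 library of its stage, so that its spread was assumed to be that of the other stages. There 0 of 10 members passed with edgeR, against 5.8% of 12569 genes, 4.71% higher and 1.09% lower; 2 (*Cyr61* and *Ctgf*) had an unadjusted p under 0.05, and DESeq2 called 1. *Cyr61* gave 1.70 ± 0.50 there (adjusted p = 0.0641 by edgeR), and *Ctgf* was at 0 in v1 E17.5. Without the *Myog*-led clusters *Cyr61* gave 1.74 and *Ctgf* was lower. These values too rest on 1 library at E17.5, the one with 60.9% hemoglobin UMIs over all its barcodes before the filter.

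The rise of *Cyr61* went with that of the dissociation genes, which include other immediate early genes. Summed over the 16 genes of list C, their level in ductal-like cells was 2435 and 1914 CPM at E12.5 in v1 and v2, 5066 to 6061 CPM at E14.5, and 12378 and 2906 CPM at E17.5 in v1 and v2, so the v2 E17.5 library was again below E14.5. In mesothelial-like cells it was 931.2 and 871.0 CPM at E12.5 and 8689 and 5302 CPM at E17.5. Of 15 genes of list C tested, 8 were higher at E17.5 in ductal-like and 14 in mesothelial-like cells, and 0 were lower (median log2 fold changes 2.60 and 3.31). In mesenchymal-like cells, with v1 E17.5 alone at that stage, 9 of 15 were higher and 0 lower (median 2.68). Their part in the rise of *Cyr61* and *Ctgf* was not tested.

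**Figure D4:**
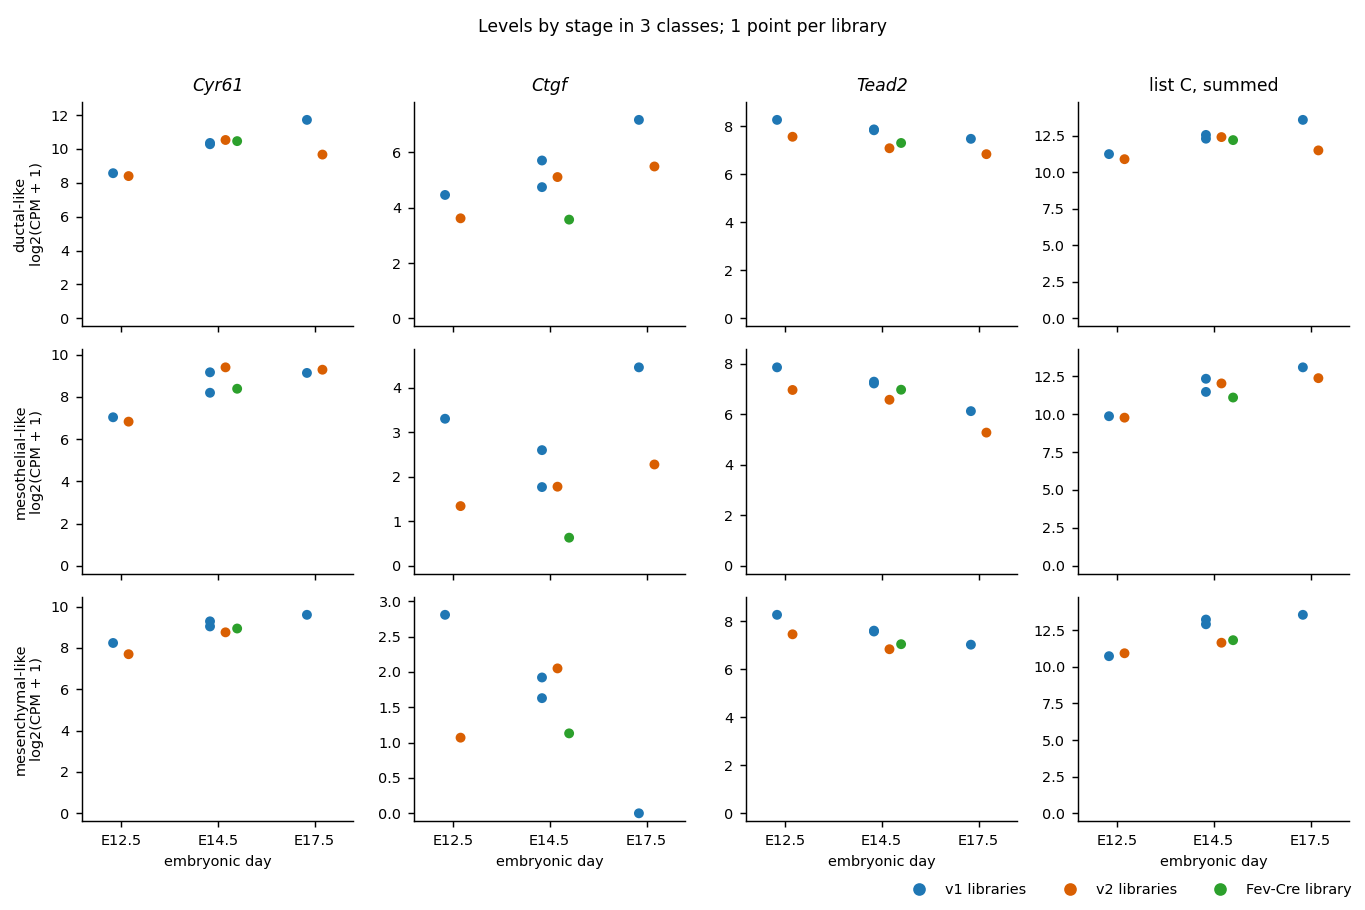
Level of *Cyr61*, *Ctgf*, *Tead2* and the summed 16 dissociation genes, as log2(CPM + 1) on the y axes, by embryonic day in ductal-like, mesothelial-like and mesenchymal-like cells; each point is a library. *Cyr61* and the dissociation genes are lowest at E12.5 in ductal-like and mesothelial-like cells, and *Tead2* is lowest at E17.5 within each kit in these same classes.

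Lists A and B were also followed across stages. In ductal-like cells 0 of 21 genes of list A and 2 of 9 of list B passed, against 5.9% of all genes, with *Nuak2*, a kinase induced by YAP, higher by 2.85 and *F3* by 1.83 on the log2 scale. In mesothelial-like cells 2 of 25 of list A were lower, *Amot* by -3.10 and *Vgll4* by -1.55 on the log2 scale. Of 13 genes of list B there, 4 were higher and 2 lower, against 11.9% and 7.78% of all genes, with *Ccdc80* at 3.06, *Myof* at 3.04, *F3* at 1.89 and *Fjx1* at -4.96. In mesenchymal-like cells, with 1 library at E17.5, *Frmd6* of list A gave 2.63 and *Amot* -2.77, and *Ccdc80* of list B 2.30, of 24 and 14 tested. List D was higher for 5 of 12 in mesothelial-like cells and passed for 0 of 11 in ductal-like and 0 of 12 in mesenchymal-like cells.

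The class differences of the members were also compared between kits, with the Fev-Cre library counted as v2. Kit thus went together with sort, and in part with strain and stage. Of 42 differences between v2 and v1 tested with edgeR, 0 passed after adjustment and 4 had an unadjusted p under 0.05. The 4 were *Tead1* and *Tead2* in Fev-like against Neurog3-like and in hormone-like against Fev-like cells. Of all genes, 0.0239% passed in Neurog3-like against ductal-like cells, 0.114% in hormone-like against Fev-like cells and 0% in the other class comparisons. In the v2 and Fev-Cre libraries no read was assigned to a second gene model listed under the symbol *Tead2*, and reads shared by overlapping models can be lost in counting. Ranges of *Tead2* over libraries of both kits would hold any such difference, whereas its folds between classes were taken within libraries.

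Over 74 sums of a class and library, the genes whose log2 level followed a member most closely were found among 6261 genes. They are given as a description, since sums of a library share its depth and free RNA. For *Yap1* the closest was *Trip6*, a LIM protein of focal adhesions (Pearson's r = 0.886), then *H19* (0.857) and *Nradd* (0.846). For *Wwtr1* they were *Sparc* (0.918), *Fkbp10* (0.887) and *Anxa2* (0.866), of which *Sparc* and *Fkbp10* serve the collagen matrix. For *Tead2* they were *Mex3a* (0.839), *Cbx1* (0.823) and *Fblim1* (0.820). For *Ctgf* they were *Nrarp* (0.815), a Notch target, *Tinagl1* (0.768) and *Marc2* (0.746), and for *Amotl2* *Mpzl1* (0.795), *Col18a1* (0.782) and *Lamb1* (0.770).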

How the data were processed

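The authors deposited raw UMI counts per gene and barcode for 10 samples, made with Cell Ranger 1.1 (v1) and 2.1 (v2) on mm10. Barcodes with at least 200 genes were kept, as in the study. Genes were matched by gene ID over the annotations, and in v2 files a second gene model of *Tead2* was added to the first; it held 0 UMIs. Log values of each cell's counts, divided by its depth, were used, and Leiden clustering at resolution 1 used 2000 variable genes, 20 principal components and 20 neighbors (Python 3.11.15, scikit-learn 1.9.0, leidenalg 0.10.2). Members and lists A and B were held out of the variable genes and of the naming. An epithelial cluster took a name from at least 3 markers. These were 1.5-fold above the other cells clustered with it and found in 10% of its cells. Mixed hormone clusters needed fewer. Mesothelial-like and vascular smooth muscle-like clusters needed more, measured against cells outside the mesenchyme. The rest of the mesenchyme was called mesenchymal-like. Other compartments took the name of their highest marker score. Thresholds of the naming were set after clusters had been seen. Clusters with more markers of another class than of their own among their top 10 genes stayed unnamed, as did 2446 endocrine and 1787 epithelial cells. In such checks 3 mesenchymal clusters of 1763 cells were set aside. Doublets were cells with markers of compartments that exclude each other (threshold 30%) and were left out; they came to 0.455% to 6.63% of a library.

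UMIs were summed per library and class and tested with edgeR 4.0.16 (TMM, filterByExpr, quasi-likelihood; R 4.3.3) over all genes, with library as a block for classes, Benjamini-Hochberg adjustment and a threshold of 0.05. SE is the log2 fold change divided by the root of F. Library is the block because its classes come from a single suspension; the deviations of paired sums correlated at 0.24 to 0.86 over the 6 class comparisons. Each library was a pool of its own litter or litters per the study's methods, and p-values measure the spread between pools. Ranges of CPM values run from the lowest to the highest library, and the SE takes in the spread between pools. Fitted steps were tested on simulated data. Alternatives included DESeq2 1.42.0, other clusterings, leaving out each library and, chosen after the data had been seen, leaving *Myog*-led clusters out of the mesenchymal-like class.

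All 10 members are named; of lists A and B, up to 4 genes each per comparison with the largest absolute fold among those that passed, except 1 that is not reported here. Members and lists were chosen with earlier results of these data known. Promoter sequences are from RefSeq on GRCm38.p6, and gene positions from GENCODE M21 on GRCm38, which is not the annotation behind the counts. Imaging and lineage tracing were not analysed here.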

Additional observations from a re-analysis of the deposited data

Results flagged for a closer look

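In 59 sets of 5 to 8 libraries, 1 for each member and class comparison with values that vary, the highest or lowest log2 difference of log2(CPM + 1) was compared with the spread of the others by Dixon's ratio at the 95% level. 11 values, from 4 libraries, stood apart, and chance gives about 1 in 20 sets where values are normally distributed. Sets of members with few UMIs or none do not meet this, so the 11 are not read as an excess over chance.

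Of these, 4 were of v1 E17.5, the library with 60.9% hemoglobin UMIs, in mesothelial-like cells, of which it held 49. Against mesenchymal-like cells it had the lowest *Tead1* difference (-1.11) and the highest *Ctgf* difference (4.46). Against ductal-like cells it had the highest *Yap1* difference (2.24) and the lowest *Tead1* difference (-1.1). In hormone-like against Fev-like cells the same library had the lowest *Ctgf* difference (-2.35), from 1 UMI in its Fev-like cells.

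In v1 E14.5 batch 1 *Ctgf* was lowest in Fev-like against Neurog3-like cells (-2.03), from 1 UMI in its Neurog3-like cells, and *Yap1* was lowest in hormone-like against ductal-like cells (-5.97). In v1 E14.5 batch 2, with 3.53 CPM of *Lats2* in 110 ductal-like cells, *Lats2* was highest in hormone-like against ductal-like cells (0.37) and in mesothelial-like against ductal-like cells (2.62). There *Wwtr1* was also highest in hormone-like against Fev-like cells (1.39). In v2 E14.5 *Ankrd1* was lowest in mesothelial-like against mesenchymal-like cells (-4.71), where 8 UMIs in 54 cells made the mesenchymal-like level, all of them in the 25 cells of a cluster led by the skeletal muscle gene *Myog*.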

How the results depend on the processing

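The counts of members that passed in Neurog3-like against ductal-like cells stayed within 1.5 times 6 under every alternative run. In Fev-like against Neurog3-like cells the count of 5 became 3 with counts split between clustering and test, and 3 in v1 libraries alone. Hormone-like against Fev-like cells depended most on the settings. There *Tead1* entered the test in 14 alternatives and passed in 13, and *Tead2* entered it in 19 and passed in 17. The count of 2 became 1 with a 2-fold threshold as well, at Leiden resolution 2, with at least 500 genes per cell, with cycling cells left out, in v1 libraries alone and in v2 and Fev-Cre libraries alone. It became 0 with split counts and 0 without the library block, and ranged from 1 to 2 when each library was left out, at 1 without v2 E14.5, v2 E17.5 or Fev-Cre. In hormone-like against ductal-like cells 8 became 5 with split counts, with cycling cells left out and in v1 libraries alone, where fewer members had enough UMIs to be tested. In mesothelial-like against mesenchymal-like cells 5 became 1 with the 2-fold threshold, 3 without the library block and 2 in v2 and Fev-Cre libraries alone. In mesothelial-like against ductal-like cells 7 became 4 with the 2-fold threshold.

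Between E17.5 and E12.5 the ductal-like count of 2 became 1 without the kit term and ranged from 0 to 2 without each library. The mesothelial-like count of 2 ranged from 1 to 2, at 1 without v2 E17.5. The mesenchymal-like count of 0 became 1 with DESeq2, with RLE size factors, with no filter on low counts, with each library clustered alone and with cycling cells left out, became 2 without the *Myog*-led clusters, where v1 E17.5 was the 1 library of its stage, and ranged from 0 to 1 without each library, at 1 without v1 E14.5 batch 1, v2 E12.5 or v2 E14.5. No fold of a member called with the main settings changed direction under any alternative run. Folds called only in alternatives could: *Ctgf* across stages in mesenchymal-like cells ran from -8.22 to 0.475 on the log2 scale. *Tead1* in Neurog3-like against ductal-like cells ran from -0.593 to 0.0697. Over all genes the count that passed ranged under the alternatives from 1818 to 6324 in Neurog3-like against ductal-like cells, from 1263 to 3883 in Fev-like against Neurog3-like, from 438 to 2733 in hormone-like against Fev-like, from 3101 to 9250 in hormone-like against ductal-like, from 1747 to 4990 in mesothelial-like against mesenchymal-like and from 2349 to 7385 in mesothelial-like against ductal-like cells. For E17.5 against E12.5 the ranges were 127 to 1215 in ductal-like, 404 to 3146 in mesothelial-like and 366 to 1484 in mesenchymal-like cells. Except where fewer UMIs or libraries are named, the cause was not tested. Depth limits *Ankrd1*, *Lats2*, *Yap1* and *Wwtr1* in Fev-like and hormone-like cells, where a sum of a library held few UMIs or none.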
